A study of Mus musculus with 6 samples.

Results

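Ccdc107, Clcn3, Akt1s1, Clec2l and Decr2 are 5 of the 16822 genes that had at least 1 listed cytosine in RNA bisulfite sequencing of depolarized mouse cortical neurons. They were selected on measured levels, because each holds a cytosine whose m5C level was higher after 2 h of KCl than before it and was still higher at 6 h. The levels at these 5 cytosines in the 0, 2 and 6 h groups are therefore what selected the genes, and their changes over time are given as descriptions with no test. In all, 2096 cytosines of the 5 genes were listed among 5240657 in the series, and 7 of them reached a level of at least 10% with at least 6 methylated reads in a library.

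Poly(A) RNA came from wild-type C57BL/6 cortical neurons, taken from pooled male and female embryos at E16.5 and kept in culture for 7 days. From day 6 every culture, the 0 h group included, was silenced overnight with 1 µM TTX, a sodium channel blocker, and 100 µM DL-AP5, an NMDA receptor antagonist. The groups then received 55 mM KCl for 0, 2 or 6 h, which depolarizes the membrane, with 2 biological replicates each and 6 libraries in total. Bisulfite converts unmodified cytosine so that it is read as T, and the methylation level is the share of reads that still show C. A primary cortical culture is not purely neuronal, and bulk RNA cannot tell fewer cells of a type from less RNA per cell.

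In mRNA, m5C is written by methyltransferases such as those of the NSUN family, bound by reader proteins such as ALYREF and YBX1, and oxidized by TET enzymes. Clcn3 encodes ClC-3, a chloride and proton exchanger of endosomes and vesicles. Akt1s1 encodes PRAS40, an Akt substrate that binds and restrains mTORC1, the kinase complex that couples nutrients and growth signals to protein synthesis. Decr2 encodes the peroxisomal 2,4-dienoyl-CoA reductase, which is used in the breakdown of unsaturated fatty acids. Clec2l encodes a C-type lectin-like membrane protein, and Ccdc107 a protein with a coiled-coil domain.

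The cytosine that led to the choice of each gene, called the leading cytosine here, is shown in capitals with 10 bases on each side. The sequences are those of the RNA strand in GRCm38, written 5′ to 3′ with T for U, and they are shown so that the bases just after the site can be compared.
Ccdc107: acagctggtgCagctgacaca
Clcn3: cagggaaaatCtggaggtgtg
Akt1s1: cagccagtgtCgggaagagtt
Clec2l: gaaaacagccCagggctagag
Decr2: tcctatgtctCaggtatcgtg

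All 5 leading cytosines had a G at the second base after the site, and 4 of 5 had GG there and at the next base, Ccdc107 being the exception. G at that second base was found at 44.3% of the 974 positions in named nuclear genes that passed the thresholds and at 30.6% of 197152 cytosines with a level under 1%. GG at those bases stood at 26.2% and 8.53% of the same sets. Among the 438 positions on the study's site list both were more frequent, with G at 72.1% and GG at 50%. Only the Clec2l site had GGG from the second base on, which 14.3% of passing positions, 26.5% of listed sites and 1.76% of the low cytosines had. The motif CTCCA starting at the site was present at 0 of 5, against 1.13% of passing positions, 2.28% of listed sites and 0.758% of the low cytosines. At shares this low, 0 of 5 does not set these sites apart. These are matches of letters on the RNA strand and with 5 sites they carry no test.

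The leading cytosine of Ccdc107 (ENSMUSG00000028461, chr4:43492900-43495921) was chr4:43495356 on the plus strand, in exon 4 of 6 (chr4:43495342-43495432) of Ccdc107-201. It was the first base of codon 112 of 243 in the coding sequence. The Decr2 site (ENSMUSG00000036775, chr17:26081208-26090337) was also coding. It lay at chr17:26082973 on the minus strand, in exon 8 of 9 (chr17:26082876-26083093) of Decr2-201, and was the second base of codon 261 of 293.

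The other 3 leading cytosines were in 3′ UTRs. In Clcn3 (ENSMUSG00000004319, chr8:60910389-60983300) the site was chr8:60912348 on the minus strand, 737 bases after the stop codon and 1959 bases from the end of Clcn3-202, in exon 12 of 12. In Akt1s1 (ENSMUSG00000011096, chr7:44848991-44855421) it was chr7:44854958 on the plus strand, 223 bases after the stop codon and 463 from the end of Akt1s1-201, in exon 5 of 5. In Clec2l (ENSMUSG00000079598, chr6:38663069-38680864) it was chr6:38680743 on the plus strand, 504 bases after the stop codon and 121 from the end of Clec2l-201, in exon 5 of 5. The Clec2l site was thus the nearest of the 3 to the end of its transcript.

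Folding of the transcripts at 70 °C gave the leading cytosines different predicted accessibility. The predicted probability of being unpaired was 0.687 in Clec2l, against a median of 0.436 over the cytosines of that transcript. It was 0.629 in Clcn3 and 0.526 in Akt1s1, near their transcripts' medians of 0.595 and 0.519. The coding sites were predicted to be more often paired than their transcripts' cytosines, with 0.150 against 0.419 in Ccdc107 and 0.304 against 0.545 in Decr2.

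The libraries held 1559828 to 2374392 listed cytosines each, at a median coverage of 324 to 480 reads. Replicate 1 at 6 h stood apart: 0.116% of its reads at cytosines below a level of 1% and covered 5000 times or more were unconverted, against 0.0840% to 0.0871% in the other 5 libraries. Replicates differed at 554 of 3004 positions at 6 h, at 99 of 2965 at 2 h and at 8 of 2921 at 0 h (Fisher's exact test on reads, adjusted by Benjamini-Hochberg). Levels at 6 h are therefore given for each replicate. Of the early response genes, Fos coverage was 146-fold higher at 2 h and 78.2-fold at 6 h. No marker of microglia (4 listed genes) or endothelium (2 genes) had a cytosine listed in all libraries, whereas all 5 neuronal markers had one.

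At the leading cytosine of Ccdc107 the 0 h replicates measured 15.3% and 16.0%, the 2 h replicates 38.7% and 42.6%, and the 6 h replicates 42.8% and 43.9%. The 3 groups did not overlap, and most of the difference was present at 2 h. The means were 15.6% ± 0.53, 40.6% ± 2.80 and 43.4% ± 0.80 (SD, n = 2), which makes the level 2.6-fold higher at 2 h and 2.77-fold higher at 6 h than at 0 h. Coverage was 479 to 931 reads, and the Wilson 95% interval was 12.9% to 17.9% in the first 0 h replicate and 38.4% to 47.3% in the first 6 h replicate. The counts on both sides of the ratio moved at 2 h. Methylated reads went from 123 and 115 at 0 h to 360 and 390, while converted reads went from 683 and 603 to 571 and 525. At 6 h both were lower than at 2 h, with 205 and 257 methylated and 274 and 328 converted reads.

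The Clec2l site was methylated to 40.8% and 37.5% before KCl, to 61.3% and 62.3% after 2 h, and to 75.0% and 59.0% after 6 h. Both later groups lay above 0 h, and they overlapped each other because the 6 h replicates lay on either side of the 2 h ones. The means were 39.2% ± 2.35, 61.8% ± 0.77 and 67.0% ± 11.3 (SD, n = 2). This was the highest of the 5 sites at every time and the shallowest, with 32 to 80 reads. Its Wilson 95% intervals were wide, from 28.2% to 54.8% and from 22.9% to 54.7% in the 0 h replicates. The second 6 h replicate, with 46.5% to 70.5%, overlapped both of these in reads of single libraries. The first 6 h replicate, with 62.3% to 84.5%, lay above both.

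The Clcn3 site had levels of 10.4% and 11.5% without KCl, 25.4% and 23.9% with 2 h of KCl, and 25.5% and 20.8% with 6 h. The 0 h libraries were the lowest, and the 2 h and 6 h groups overlapped. The means were 10.9% ± 0.77, 24.6% ± 1.05 and 23.1% ± 3.29 (SD, n = 2), a 2.25-fold and a 2.11-fold difference from 0 h. This site had 566 to 2250 reads. Methylated reads numbered 92 and 65 in the 0 h libraries, 470 and 315 in the 2 h ones, and 437 and 468 in the 6 h ones.

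The Akt1s1 and Decr2 sites were low and changed less in percentage points. The 0 h libraries gave 7.55% and 6.12% at the Akt1s1 site, the 2 h libraries 10.7% and 11.8%, and the 6 h libraries 10.8% and 11.7%, over 768 to 1739 reads. The 0 h libraries were both below the others, and the 6 h libraries lay within the range of the 2 h libraries. The means were 6.84% ± 1.01, 11.3% ± 0.81 and 11.3% ± 0.68 (SD, n = 2), so the 4.43 percentage points gained at 2 h were also the difference at 6 h. For Decr2 the levels were 6.09% and 7.23% before KCl, 11.8% and 10.4% after 2 h, and 12.4% and 15.4% after 6 h. The 3 groups did not overlap, with means of 6.66% ± 0.80, 11.1% ± 0.97 and 13.9% ± 2.13 (SD, n = 2). Only 97 and 117 reads covered the Decr2 site at 6 h, and the 95% intervals of 7.22% to 20.4% and 9.96% to 23.0% there overlapped the 3.84% to 9.54% and 4.18% to 12.2% at 0 h, except that the second 6 h replicate lay above the first 0 h replicate.

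**Figure D1:**
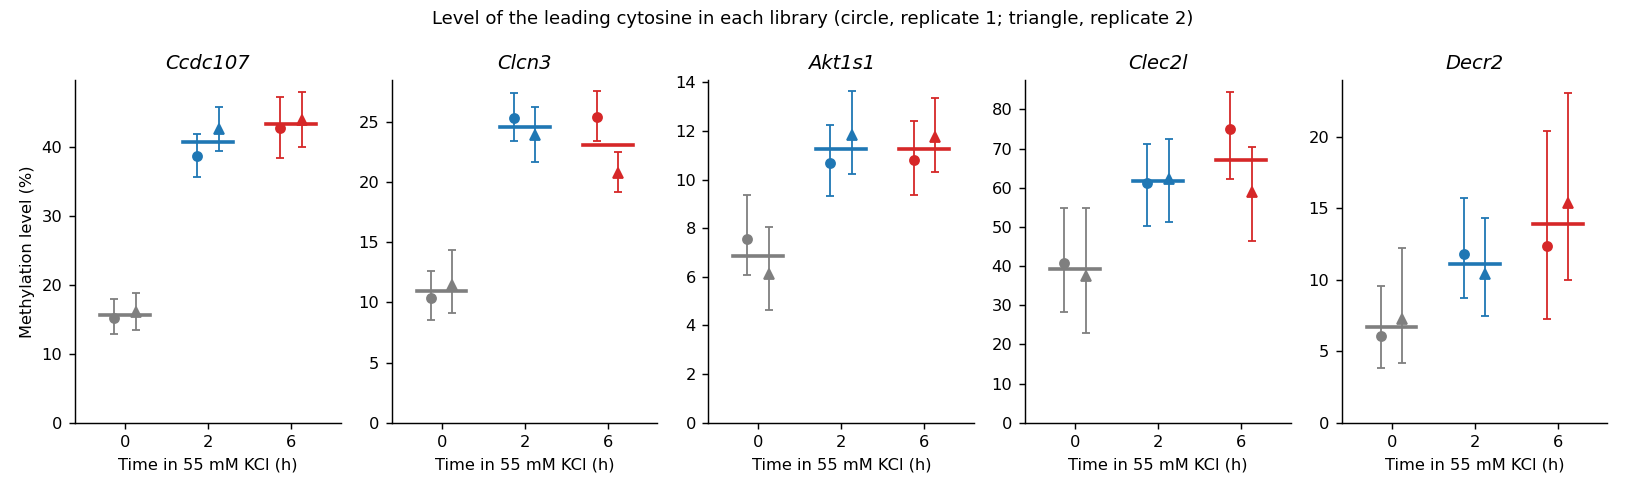
Methylation level in percent of the leading cytosine of each gene in each library by hours in 55 mM KCl, with circles for replicate 1, triangles for replicate 2 and Wilson 95% intervals from read counts. Both 0 h libraries lie below all 2 h and 6 h libraries at the 5 sites, and the intervals are widest at Clec2l, which had 32 to 80 reads.

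In order of level, Clec2l was highest, then came Ccdc107 and then Clcn3 at all 3 times, with no overlap between these neighbours. Akt1s1 and Decr2 followed, and their libraries overlapped at 0 h and 2 h. At 6 h the 2 Decr2 libraries were above the 2 Akt1s1 libraries, but within the width of the Decr2 intervals.

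All 5 genes had both 2 h libraries above both 0 h libraries, and likewise for 6 h, which is what they were chosen for. Among all tested positions this held at 20.2% of 2825 for 2 h and at 12.2% of 2838 for 6 h. Within named nuclear genes it held at 40.4% and 28.1%. A non-overlap of 6 h over 2 h, present at Ccdc107 and Decr2, was found at 7.72% of 2928 positions and at 12.7% of those in named nuclear genes. Among 774 positions in 390 named nuclear genes with at least 20 reads in all 6 libraries, 386 (49.9%) had higher means at both later times. The median position lay 3.28 percentage points above 0 h at 2 h and 0.93 above it at 6 h. All these sets passed the coverage, level and read thresholds only, without the study's further filters, and some genes hold many of the positions. On the study's own site list a rise was more frequent. Fisher's exact test called 243 of 406 positions higher and 3 lower at 2 h, and 142 of 399 higher and 23 lower at 6 h.

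Within those 774 positions the 5 sites ranged widely. Ccdc107 gained 25 percentage points at 2 h, which 14 positions exceeded, and 27.7 at 6 h, which 2 exceeded. Clec2l gained 22.6 and 27.9 percentage points, exceeded by 21 positions at 2 h and by 1 at 6 h. Clcn3 gained 13.7 and 12.2, exceeded by 69 and 48. The gains of Akt1s1 and Decr2 at 2 h, 4.43 and 4.42 percentage points, were exceeded by 339 and 341 positions, and those at 6 h by 232 and 158. Their places in the order thus lay nearer to the middle of all positions than those of the other 3 genes.

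**Figure D2:**
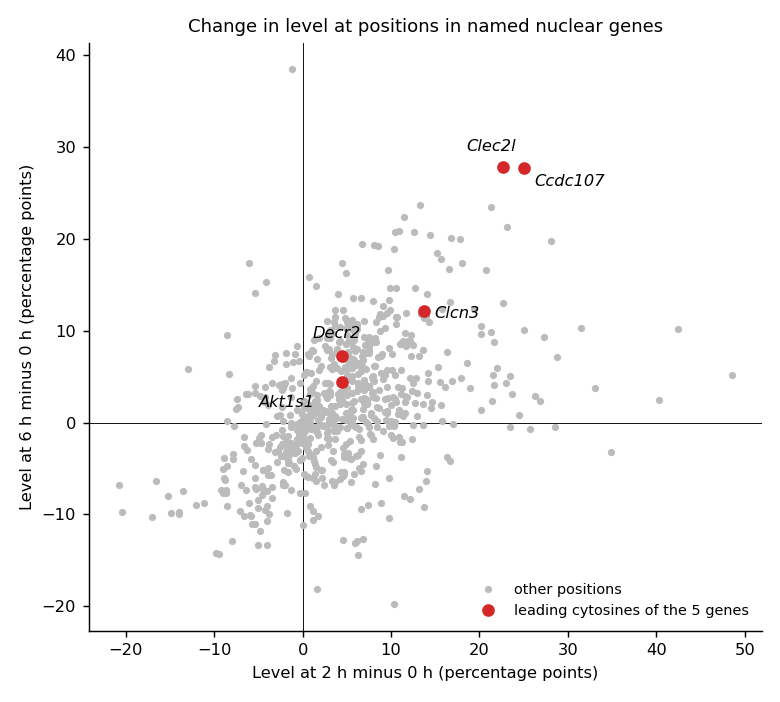
Difference in level from 0 h at 2 h (horizontal axis) and at 6 h (vertical axis), in percentage points, for 774 positions in named nuclear genes, with the leading cytosines of the 5 genes in red. Ccdc107 and Clec2l lie far to the upper right, and Clcn3 lies closer to the other positions, 69 of which gained more at 2 h and 48 at 6 h. Akt1s1 and Decr2, which gained 4.43 and 4.42 percentage points at 2 h, lie inside the cloud.

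The choice asked both replicates to pass and so favoured small gaps between them, and the gaps at the leading cytosines are given with no test. The widest were at 6 h, where replicate 1 lay 4.65 percentage points above replicate 2 at the Clcn3 site, on 1717 and 2250 reads, and the Clec2l replicates gave 75.0% and 59.0% on 56 and 61 reads. Over all tested positions the replicates of the 0, 2 and 6 h groups lay a median of 2.42, 2.41 and 4.02 percentage points apart.

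The sites whose 6 levels came closest to a leading cytosine were looked for among the 774 positions by the Euclidean distance over the 6 libraries, in percentage points. For Clcn3 it was a position in Msl1 (distance 3.47), with mean levels of 10.9%, 24.4% and 22.8% at 0, 2 and 6 h, followed by Ppp2r2c and Chst2 (7.83). For Decr2 it was Rimklb (2.19), with means of 6.18%, 11.5% and 13%, followed by 1110065P20Rik (3.69) and Dpp8 (3.86). For Akt1s1 the distances were 2.57 to Klc2, 2.75 to Tro and 2.86 to Gabbr1. The 2 high sites had no neighbour as near. The closest to Ccdc107 was Cenpv (16.9), with means of 15.2%, 32.0% and 35.3%, followed by a position shared by Atn1 and Gm45234 (17.4) and one in Neurl1a (18.5). The closest to Clec2l was Lrrc45 (24.3), with means of 40.3%, 54.6% and 60.8%, followed by Myo9b (26.1) and Samd14 (27.6). Sites with low levels have less room to differ on this scale, which applies to Akt1s1 and Decr2.

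Cytosines next to the leading sites of Clcn3, Akt1s1 and Ccdc107 were converted nearly completely. Within 50 bases of the Clcn3 site, 6 to 20 of 20 cytosines were listed per library, and 0.0860% to 0.231% of their reads were unconverted. The level of the site was 49.8 to 278 times that share. Around the Akt1s1 site the share was 0.0966% to 0.183% over 8 to 24 of 37 cytosines, and around the Ccdc107 site 0.136% to 0.598% over 3 to 9 of 26. No single neighbour exceeded 0.711% at Clcn3, 0.562% at Akt1s1 or 1.25% at Ccdc107. The background was higher at the 2 sites with the fewest reads. Around Decr2 it was 0.311% to 2.11% over 1 or 2 listed cytosines of 26. Around Clec2l it was 1.89% to 5.48% over at most 5 of 34, with a highest single level of 8.96%. A cytosine was listed only where it had at least 10 reads and at least 1 unconverted read, so fully converted neighbours are missing and these shares are too high, most of all at low coverage.

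**Figure D3:**
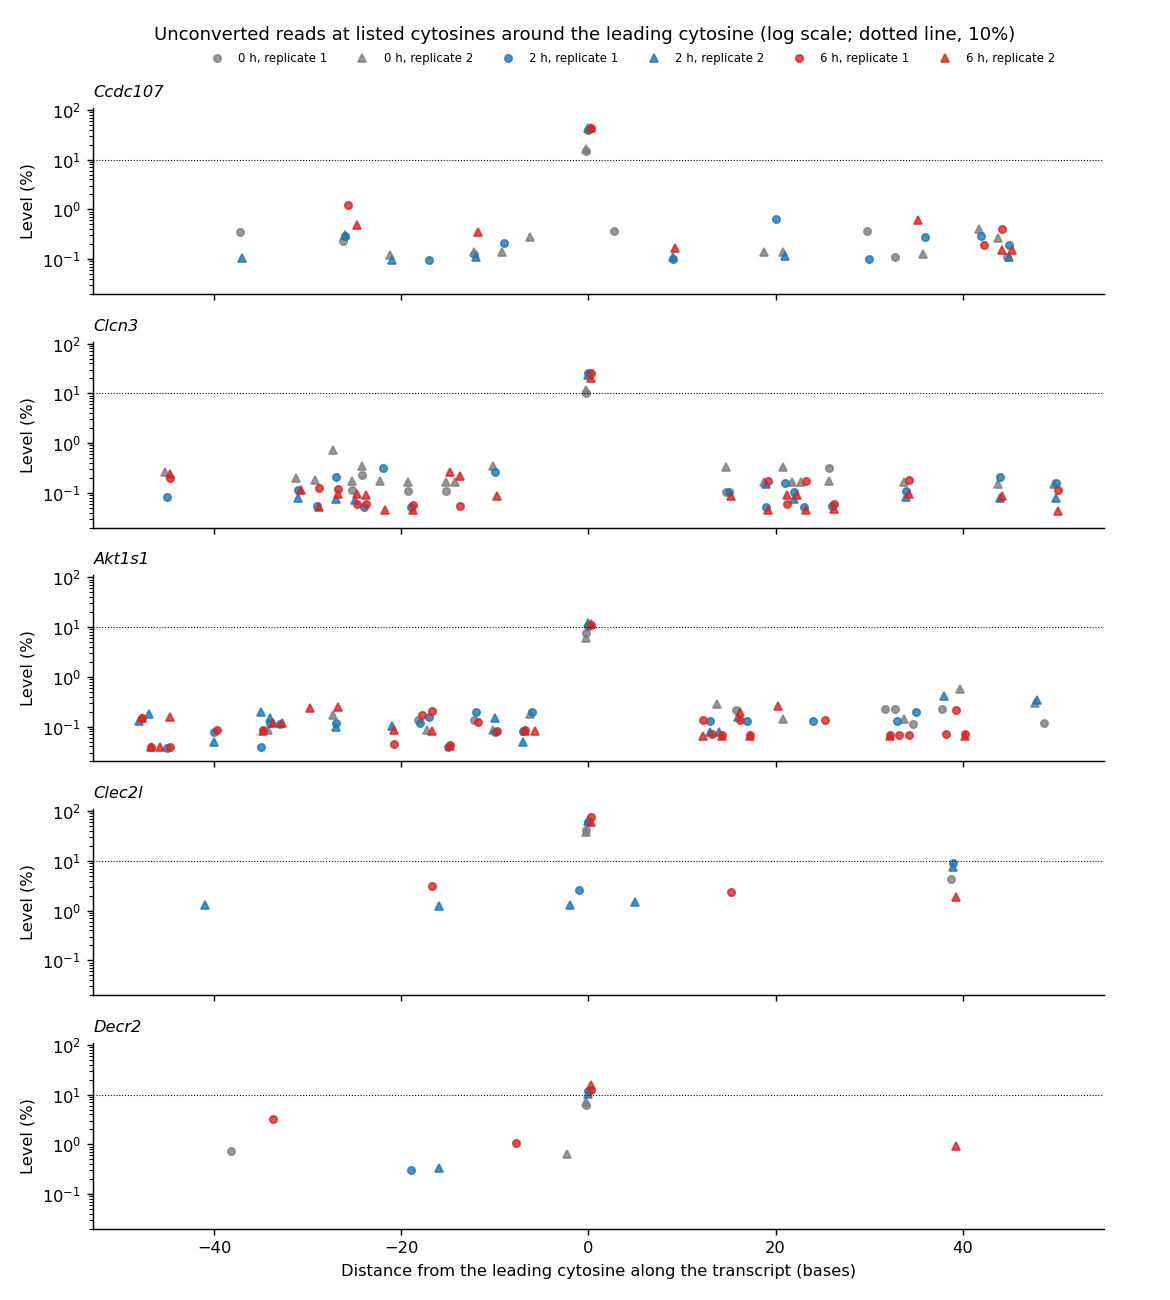
Level in percent, on a log axis, of every listed cytosine within 50 bases of the leading cytosine of each gene, by distance along the transcript in bases, with colours for the time points and symbols for the replicates. The leading cytosine at distance 0 stands above all its listed neighbours, whose highest level was 8.96% at Clec2l and 0.562% at Akt1s1.

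Of the 2089 other listed cytosines of the 5 genes, 1634 (78.2%) had a level under 1% over the summed reads of the libraries that listed them, and the median level was 0.356%. By gene, 355 of 402 other cytosines were under 1% in Akt1s1, 288 of 320 in Clec2l, 113 of 126 in Ccdc107, 785 of 1046 in Clcn3 and 93 of 195 in Decr2. In Decr2 the median scaled coverage of listed cytosines was 86.3 to 284 reads, and at low coverage a single unconverted read is a larger level.

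A further 2 cytosines passed the thresholds in a library. In Clec2l it was chr6:38663248, in exon 1 (chr6:38663069-38663416), the first base of codon 5 of 212. It is shown with its 10 bases on each side, the site in capitals, to set it beside the leading site of the same gene.
Clec2l exon 1: ggagccggccCgggagccccc
This cytosine was also followed by GG from the second base on. Its levels were 10.0% and 9.63% before KCl, 13% and 8.28% after 2 h, and 15.6% and 10.3% after 6 h, over 243 to 326 reads. The 0 h and 2 h groups overlapped, as did the 2 h and 6 h groups, while both 6 h libraries were above both 0 h libraries. The level lay 0.80 percentage points above 0 h at 2 h and 3.10 above it at 6 h, and 6 h lay 2.29 above 2 h, none past Fisher's exact test (adjusted p = 1, 0.552 and 0.622, Benjamini-Hochberg). Of all tested positions, this test called 7.72% higher and 1.73% lower at 2 h than at 0 h, 5.32% higher and 1.9% lower at 6 h than at 0 h, and 6.05% higher and 5.67% lower at 6 h than at 2 h. Both splits with 6 h depended on the 6 h library used. Against 0 h it was 99 positions higher and 85 lower without replicate 1 at 6 h, and 477 higher and 32 lower without replicate 2. Against 2 h it was 25 higher and 199 lower without replicate 1, and 467 higher and 124 lower without replicate 2. In named nuclear genes, 6 h against 2 h gave 49 higher and 167 lower. This test sums the replicates and does not count their spread: limma on the log2 ratio and a quasi-binomial model called 0 positions in each comparison, with 88 to 211 and 133 to 257 at an unadjusted p of at most 0.05. Whether the changes of the coding cytosine and of the leading site of Clec2l differ was not tested.

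The other was chr7:44851919 in Akt1s1, which lay in an intron of Akt1s1-201 and in no exon of the 12 annotated Akt1s1 transcripts. It was listed in a single library, replicate 2 at 2 h, with 7 methylated of 69 reads (10.1%, Wilson 95% interval 5.0% to 19.5%). No comparison over time was possible there.

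Some positions lay just under the thresholds. In Clcn3, chr8:60910945 had 5 methylated of 25 reads in replicate 2 at 6 h, and in Decr2, chr17:26081901 had 5 of 44 in the same library. In Clec2l, chr6:38680782, which is 39 bases after the leading cytosine, had 6 of 67 and 5 of 66 reads methylated at 2 h. At the leading sites themselves, Akt1s1 and Decr2 were under the 10% level in both 0 h libraries and above it in all later ones.

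Some cytosines of these genes were covered by over 1000 reads in sum and had a low level of at least 1%, and they are named after their values were seen. In Akt1s1, chr7:44854874, 84 bases before the leading cytosine, had levels of 1.03% and 0.596% before KCl, 1.61% and 1.75% after 2 h, and 2.01% and 2.53% after 6 h. A second one, chr7:44854758, had 1.24% and 1.47%, 1.38% and 1.78%, and 1.73% and 2.45% in the same order. The former did not overlap between any of the 3 groups, while the latter overlapped between 0 h and 2 h and between 2 h and 6 h. In Clec2l, chr6:38663232 in the 5′ UTR had 8.16% and 5.58% in the 0 h libraries, 5.46% and 3.72% in those of 2 h, and 9.05% and 6.09% in those of 6 h. Both 2 h libraries lay below those of 0 h and 6 h, which overlapped each other. Also in Clec2l, chr6:38663247, the base before the coding cytosine above, had 1.21% and 1.15% before KCl, 2.57% and 4.78% after 2 h, and 3.39% and 3.75% after 6 h. Both later groups lay above 0 h there and overlapped each other. In Clcn3, chr8:60923092 was listed in 4 libraries, with 0.568% in replicate 2 at 0 h, 1.99% in replicate 1 at 2 h, and 0.958% and 0.318% at 6 h. How often groups lie apart at cytosines of such low level was not counted over the series. The overlaps and gaps named here therefore carry no result about the 5 genes.

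**Figure D4:**
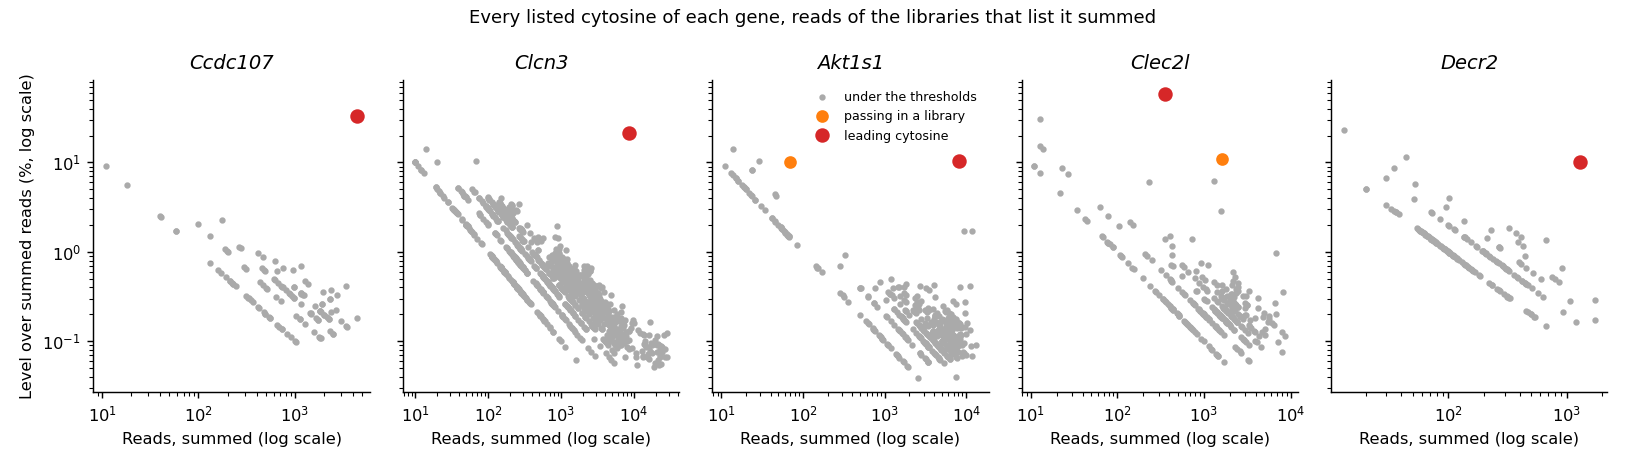
Level over summed reads in percent against summed reads, both on log axes, for every listed cytosine of each gene, with the leading cytosines and those passing the thresholds marked. The leading cytosines lie above most of a cloud of which 78.2% lies under 1%. In Akt1s1 and Decr2 a few cytosines with at most 44 reads reach a higher level, and the falling lower edge is the level of a single unconverted read.

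The choice asked for at least 20 reads at the leading cytosine and not for a change in coverage over time, and such changes were tested. The leading cytosine of each of the 5 genes was listed in all 6 libraries. The denominator of the selecting level is therefore part of the tested coverage. Coverage was scaled for library size and averaged over the cytosines of a gene listed in all 6 libraries, and the test used the 2601 genes with at least 5 of them. It is an average of overlapping reads and not a count of RNA molecules. Among the 5 genes, Clcn3 had 52 and Akt1s1 had 10 such cytosines. Clcn3 coverage was 1305 and 1292 scaled reads per cytosine before KCl, 1929 and 1710 after 2 h, and 2270 and 2145 after 6 h. The 3 groups did not overlap. The rise was 1.40-fold at 2 h (log2 difference 0.48 ± 0.073 SE, limma with Benjamini-Hochberg adjustment, adjusted p = 0.0059) and 1.70-fold at 6 h (0.76 ± 0.073 SE, adjusted p = 0.000316). Of all genes, 14.6% were called higher and 14% lower at 2 h, and 29.7% higher and 32.9% lower at 6 h. From 2 h to 6 h it was 1.21-fold higher (limma, adjusted p = 0.0201), where 23.8% of genes were called higher and 28.5% lower. That call was lost without replicate 1 at 6 h (adjusted p = 0.0996), without replicate 2 at 6 h (adjusted p = 0.051) and with the median in place of the mean (adjusted p = 0.0994).

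Akt1s1 coverage was 1227 and 1268 scaled reads in the 0 h libraries, 1856 and 1881 in those of 2 h, and 2026 and 1844 in those of 6 h. The later groups were above 0 h and overlapped each other. The rise was 1.5-fold at 2 h (log2 difference 0.58 ± 0.064 SE, limma, adjusted p = 0.00205) and 1.55-fold at 6 h (adjusted p = 0.000375), with no call between 2 h and 6 h (limma, log2 difference 0.05, adjusted p = 0.543). In a fit added after seeing the data, on the median over all cytosines listed in each library, the Clcn3 rises were 0.99 and 1.32 on the log2 scale and missed the threshold (limma, adjusted p = 0.195 and 0.0563). In that fit the Akt1s1 rise was 0.64 at 2 h (adjusted p = 0.130) and 0.77 at 6 h (adjusted p = 0.0404). It covered 10086 genes and called few: 0.327% higher and 0.0496% lower at 2 h, 2.91% and 2.47% at 6 h, and 0.0496% in each direction between 2 h and 6 h.

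The other 3 genes had fewer cytosines listed in all 6 libraries, so their coverage was taken from the fit that asked for at least 1, with 4693 genes. For Ccdc107 and Decr2 the only such cytosine was the leading one, so their tested coverage is also the denominator of the level that selected them. Decr2 had 262 and 189 scaled reads before KCl, 287 and 327 after 2 h, and 103 and 113 after 6 h. The 6 h libraries were the lowest. The log2 difference of Decr2 was -1.04 ± 0.184 SE from 0 h to 6 h (limma, adjusted p = 0.00302), and coverage was 0.354 times its 2 h value at 6 h (limma, adjusted p = 0.00096). It was not called at 2 h (log2 difference 0.46, adjusted p = 0.111). In this fit 13.5% of genes were called higher and 14.1% lower at 2 h than at 0 h. At 6 h 29.9% were higher and 31.3% lower than at 0 h, and 27.3% were higher and 28.1% lower than at 2 h.

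Ccdc107 had 756 and 817 scaled reads in the 0 h libraries, 827 and 969 in the 2 h ones, and 509 and 564 in the 6 h ones, again the lowest. It fell by 0.55 ± 0.107 SE on the log2 scale from 0 h to 6 h (limma, adjusted p = 0.0044) and by 0.74 from 2 h to 6 h (limma, adjusted p = 0.00175), with an adjusted p = 0.239 at 2 h. The 6 h falls of both genes kept their call without either 6 h replicate. In the fit on the median over all listed cytosines, the 6 h log2 differences were -0.44 in Ccdc107 (limma, adjusted p = 0.195) and -1.15 in Decr2 (adjusted p = 0.0798), short of the threshold. Clec2l, with 4 shared cytosines, had 174 and 222 scaled reads before KCl, 193 and 261 after 2 h, and 195 and 179 after 6 h, and its groups overlapped. It was not called in any comparison (limma, adjusted p = 0.506, 0.759 and 0.284). Its shared cytosines were the leading one and chr6:38663232, chr6:38663247 and chr6:38663248 in exon 1. This coverage thus includes the denominator of the selecting level and leaves out most of the transcript. On the median over all listed cytosines Clec2l was not called either (limma, adjusted p = 0.506, 0.927 and 0.449).

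Coverage on shared cytosines was thus called higher at 6 h than at 0 h in Clcn3 and Akt1s1 and lower in Ccdc107 and Decr2. It was not called in Clec2l. Of these calls only that of Akt1s1 was kept on the median over all listed cytosines. The levels selected the genes, and their relation to coverage was not tested. At the leading cytosine of Clec2l the unscaled coverage of 32 to 80 reads was far below the transcript's median over listed cytosines, which was 446 to 716 in the 6 libraries.

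**Figure D5:**
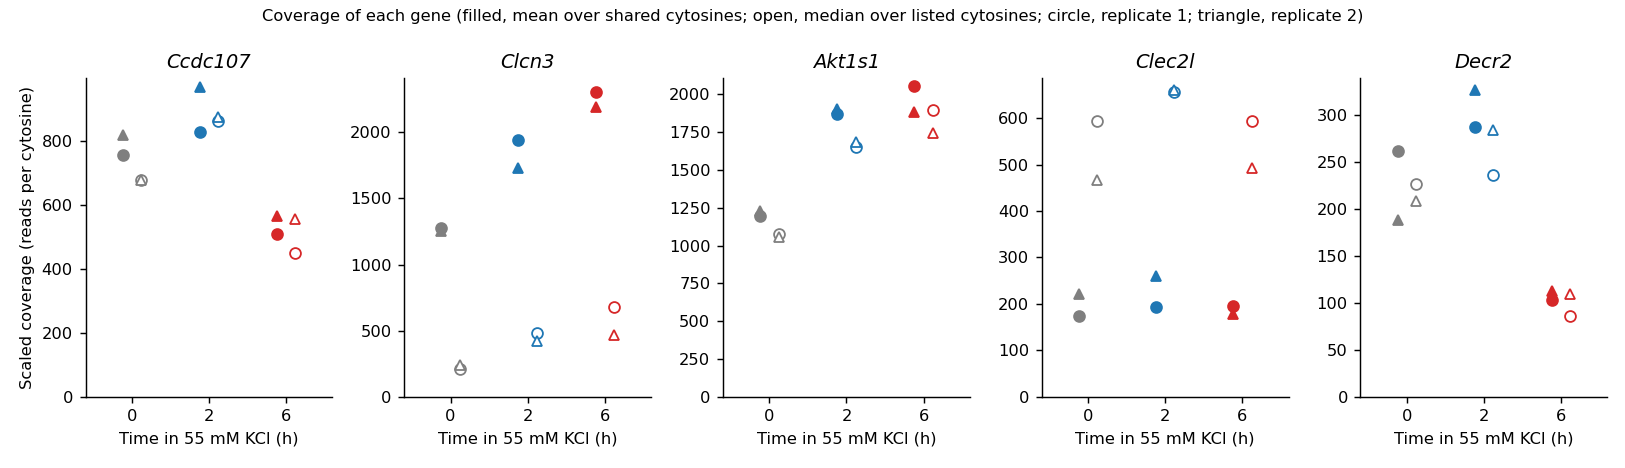
Scaled coverage in reads per cytosine of each gene in each library by hours in 55 mM KCl, as the mean over cytosines listed in all 6 libraries (filled) and the median over all listed cytosines (open), with circles for replicate 1 and triangles for replicate 2. Clcn3 and Akt1s1 lie higher at 2 h and 6 h than at 0 h, Ccdc107 and Decr2 lie lowest at 6 h, and Clec2l overlaps between the groups.

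Of 14 genes in mTORC1 and its regulators, 5 could be tested on coverage with at least 5 shared cytosines. At 2 h 3 were higher and 0 lower: Akt1s1, Rheb (log2 difference 0.45, limma, adjusted p = 0.0064), the small GTPase that activates mTORC1, and Ywhaz (0.32, adjusted p = 0.00605), a 14-3-3 protein. At 6 h the same 3 genes were higher, Rheb by 1.95-fold (limma, adjusted p = 0.000124), and 0 were lower. The list's median log2 difference at 6 h was 0.39, against -0.01 over all genes, of which 14.6% were called higher at 2 h and 29.7% at 6 h. With at least 1 shared cytosine, 11 genes were tested, with 3 higher and 1 lower at 2 h (13.5% and 14.1% of all genes) and 5 higher and 0 lower at 6 h (29.9% and 31.3%). On each library's own listed cytosines, limma called 0 of 14 at 2 h, with 4 at an unadjusted p under 0.05, as were 1608 of 10086 genes. At 6 h 2 were higher, as were 2.91% of all genes.

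Of 8 genes for CLC channels, transporters and their partner Ostm1, 2 were tested. Clcn3 rose, and Clcn4, a close relative of the same endosomal group, fell by 0.25 at 6 h (limma, adjusted p = 0.016), where 29.7% of all genes were called higher and 32.9% lower. With at least 1 shared cytosine 4 were tested, and 2 were higher and 1 lower at 6 h (29.9% and 31.3% of all genes). On each library's own listed cytosines limma called 0 of 7 at 6 h, with 3 at an unadjusted p under 0.05. In that fit 2797 of 10086 genes had such a p at 6 h, and 2.91% were called higher and 2.47% lower. Of 15 genes for the oxidation of unsaturated fatty acids and peroxisomal beta-oxidation, 2 had at least 5 shared cytosines. Of these, Abcd3, a peroxisomal fatty acid transporter, fell by 0.85 on the log2 scale at 6 h (limma, adjusted p = 0.000215), when 32.9% of all genes were called lower. With at least 1 shared cytosine, 5 were tested and 4 were lower at 6 h, Decr2 among them, in a fit that called 31.3% of all genes lower. On each library's own listed cytosines limma called 0 of 11 at 6 h, with 6 at an unadjusted p under 0.05 (2797 of all 10086 genes). Of 8 m5C methyltransferases only Nsun2 had at least 5 shared cytosines, and it was not called. Of 6 m5C readers and oxidases only Ybx1 had as many, and it was not called either. With at least 1 shared cytosine 3 were tested, of which 1 was higher at 2 h (13.5% of all genes) and 2 at 6 h (29.9%): Ybx1 by 0.23 and Alyref by 0.48 on the log2 scale at 6 h. On each library's own listed cytosines limma called 0 of 6 at 6 h, with 2 at an unadjusted p under 0.05 (2797 of all 10086 genes). The list's median log2 difference there was -0.14.

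Markers of cell types were measured in the same fits. Of 5 astrocyte markers, 3 could be tested, and these 3 were lower at 6 h, where 32.9% of all genes were, with log2 differences of -0.66 for Aldh1l1, -0.30 for Slc1a3 and -0.70 for Aldoc, and Gfap and Aqp4 had no cytosine listed in every library. The summed scaled coverage of the 3 was 8098 and 8451 before KCl, 7590 and 7841 after 2 h, and 6205 and 5933 after 6 h. On each library's own listed cytosines limma called 0 of the 5 at 6 h, with 1 at an unadjusted p under 0.05 (2797 of all 10086 genes). Gad1, which makes GABA in inhibitory neurons, was 1.2 higher on the log2 scale at 6 h. Neurod6 was the 1 excitatory marker of 3 with at least 5 shared cytosines and was 0.49 higher at 6 h, while Slc17a7, in the fit with at least 1, fell by 0.49. Of 5 neuronal markers 4 were tested, with 1 higher and 1 lower at 6 h, against 29.7% and 32.9% of all genes. Tubb3, a neuronal tubulin, went from 16810 and 16084 scaled reads before KCl to 7027 and 7459 after 6 h. Snap25, a synaptic fusion protein, went from 4575 and 4913 to 6481 and 6343, and Map2 and Syt1 were not called. On each library's own listed cytosines limma called 0 of 5 neuronal markers higher and 1 lower at 6 h. The neuronal list's median log2 difference was -0.76 there, against 0.04 with at least 5 shared cytosines. That fit called 0 of 3 excitatory markers, and 1 of 2 inhibitory markers was higher, as were 2.91% of all genes. Of 5 oligodendrocyte lineage markers only Olig1 had at least 5 shared cytosines. It was 0.62 lower at 2 h than at 0 h (14% of all genes were lower) and 0.80 higher at 6 h than at 2 h (23.8% higher). With at least 1 shared cytosine 3 were tested, with 1 higher and 1 lower at 6 h than at 0 h (29.9% and 31.3% of all genes). Pdgfra went from 537 and 569 scaled reads before KCl to 377 and 320 after 6 h. On each library's own listed cytosines limma called 0 of 4 at 6 h. The part of these shifts in the coverage or the levels of the 5 genes was not tested.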

How the data were processed

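Poly(A) RNA of 6 libraries (0, 2 and 6 h of KCl, 2 biological replicates each) was sequenced after bisulfite conversion. The authors trimmed reads with Trim Galore, aligned them with meRanTK to GRCm38 (mm10) and called cytosines with meRanCall, and the submitters' notes name R 4.1.1. The deposited tables give read counts per position (coverage and unconverted C reads) and the level as a fraction. They list a cytosine only with at least 10 reads and at least 1 unconverted read, so depth is known at listed cytosines only, and intervals (Wilson, 95%) cover counting error only.

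All cytosines in state M of the genes were taken from the 6 tables. The members and gene lists were chosen with earlier results of these data known. The leading cytosine passed the standard filter (coverage 20, level 10%, 6 methylated reads) in both replicates of a time point and had the largest mean gain. Named were all 5 genes, each of their positions reaching 10% and 6 methylated reads, up to 3 called genes per direction and list, and the 3 nearest positions per site. Positions were tested by Fisher's exact test on summed reads (coverage 10 in all libraries), and coverage by limma 3.58.1 on log2(mean coverage + 1) with TMM scaling from edgeR 4.0.16, all 6 libraries in 1 fit, both with Benjamini-Hochberg adjustment at 0.05. Transcripts and sequences came from the GRCm38 annotation and genome, and folding from RNAplfold 2.7.2 (window 150 bases). Python 3.11.15, pandas 2.3.3, SciPy 1.17.1 and R 4.3.3 were used. Scripts were tested on simulated data. Replicate numbers were not treated as pairs, since not every correlation of same-numbered libraries exceeded 0.1: their deviations correlated at 0.0899, -0.0426 and -0.1913 over 774 positions and at 0.4453, -0.2525 and -0.2696 over 2601 genes (comparing 2 h with 0 h, 6 h with 0 h and 6 h with 2 h). The result of 1 listed gene is not reported here.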

Additional observations from a re-analysis of the deposited data

How the results depend on the processing

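The direction at the leading cytosines was fixed by the choice of the genes, so the alternatives run there say nothing of stability. Fisher's exact test called 267, 205 and 343 positions of the series (2 h against 0 h, 6 h against 0 h, 6 h against 2 h, the order used throughout). With a difference of at least 10 percentage points it called 149, 104 and 227. By limma and by a quasi-binomial model, which count the spread between replicates, 0 positions passed in each comparison, with 211, 88 and 155 at an unadjusted p of at most 0.05 by limma and 257, 133 and 135 by the quasi-binomial model. Between 2 h and 6 h, 216 were called among named nuclear genes and 194 on the study's list. Leaving out 1 library gave 168 to 257, 147 to 509 and 224 to 591. The 168 came without replicate 1 at 0 h, the 509 and the 591 without replicate 2 at 6 h, and the 224 without replicate 1 at 6 h.

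The libraries share replicate numbers. With the number as a block, limma called 67, 1 and 2 positions and the stratified test on counts 240, 215 and 436. Coverage calls went from 744, 1629 and 1360 genes to 690, 1603 and 1328 with the block, and no coverage call of the 5 genes changed. With the 6 h numbers exchanged, a pairing tried after seeing the data, limma called 24 positions and the stratified test 258 between 2 h and 6 h.

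Of the other positions of the 5 genes, 2 passed, 5 at a level of at least 5%, 7 with at least 3 methylated reads and 1 when both replicates had to pass. The unconverted share around the sites moved with the window. It was 0.121% at Clcn3 and 0.231% over the whole transcript, 0.119% at Akt1s1, 0.193% within 100 bases and 0.161% over the transcript, and 3.19% at Clec2l against 0.288% over the transcript.

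On the median over each library's own listed cytosines, the calls lost had log2 differences of -0.44 (6 h against 0 h) and -0.80 (6 h against 2 h) in Ccdc107, -1.15 and -1.40 in Decr2, 0.99, 1.32 and 0.32 in Clcn3, and 0.64 at 2 h in Akt1s1. The Clcn3 difference between 2 h and 6 h was 0.29 with medians over shared cytosines and 0.19 to 0.37 with 1 library left out. Genes called on coverage were 38, 543 and 10 with each library's own cytosines, 1296, 2871 and 2598 with at least 1 shared cytosine and 440, 953 and 764 with at least 20, in which fewer genes were tested. Without 1 library they were 338 to 906, 1192 to 1840 and 869 to 1534. Scaling by summed coverage alone split the 2 h calls into 321 higher and 507 lower, against 381 and 363 with TMM. The 32 to 80 reads at the Clec2l site, the 97 and 117 at the Decr2 site at 6 h and the 2 replicates per group limit what these data can separate. Other causes of these shifts were not tested.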
